A study of Mus musculus with 12 samples.

Results

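The miR-130/miR-301 family comprises miRNAs cut from 4 mouse hairpins, miR-130a, miR-130b, miR-301a and miR-301b. It was followed through 6 mature arms that were taken by name from the count files (mmu-miR-130a-3p, mmu-miR-130b-3p, mmu-miR-130b-5p, mmu-miR-301a-3p, mmu-miR-301a-5p and mmu-miR-301b-3p, written below without the species prefix), out of 1978 miRNAs counted. Small RNA had been sequenced from paused trophoblast stem cells (TSC), control TSC, paused embryonic stem cells (ESC) and control ESC. TSC are stem cells of the placental lineage, and the ESC carry the sample name E14, a mouse line. Paused cells were held dormant by inhibition of mTOR, the kinase that couples growth to nutrients, and control cells are labelled WT. Neither the inhibitor nor the time of treatment is given in the labels, and each cell type may stand for 1 line. Each group has 2 distinct libraries (n = 2), since the third sample of every group repeats the second value for value.

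A miRNA hairpin yields a 5p and a 3p arm, and the arm that is loaded into Argonaute silences messages that match its seed, bases 2 to 8. In this family the 3p arms are the usual guides and share 1 seed, so they can act on overlapping targets. The family is best known from endothelial, fat and tumour cells.

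The sequences below, from RefSeq on GRCm38 and with the seed in capitals, show which arms can share targets. Of the 6 arms 5 were matched there, and miR-301b-3p was not.
miR-130a-3p: cAGUGCAAuguuaaaagggcau
miR-130b-3p: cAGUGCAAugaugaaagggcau
miR-301a-3p: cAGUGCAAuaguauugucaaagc
miR-130b-5p: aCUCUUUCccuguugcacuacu
miR-301a-5p: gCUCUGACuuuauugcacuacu
The matched 3p arms had the seed AGUGCAA in common. Counted from the 5′ end, miR-130a-3p and miR-130b-3p were identical at 20 of 22 bases, with the substitutions U11A and A13G from miR-130a-3p to miR-130b-3p. miR-130a-3p and miR-301a-3p were identical at 12 of 22 bases, with all differences behind the seed. The 5p arms carried other seeds and would match other messages.

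The hairpins come from 3 loci. Mir130a lies on chromosome 2 (chr2:84741115-84741178, minus strand) outside any gene of GENCODE M21 other than its own entry. Mir301, the miR-301a hairpin, lies in an intron of Ska2, which encodes a kinetochore protein (chr11:87113004-87113089, plus strand). Mir130b (chr16:17124061-17124142, minus strand) and Mir301b (chr16:17124400-17124496, minus strand) lie 257 bases apart, both intronic in 2610318N02Rik. The Mir130b hairpin, shown because its arms behaved differently in the counts, reads as follows, with the 5p arm and then the 3p arm in capitals.
Mir130b: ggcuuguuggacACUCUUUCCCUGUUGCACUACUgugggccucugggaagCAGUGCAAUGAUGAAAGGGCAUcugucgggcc
Each matched arm has 1 locus in the RefSeq table. How reads shared by similar arms were assigned is not stated, so a split between miR-130a-3p and miR-130b-3p is uncertain for reads that are short or altered.

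Total counts were 23652 and 30487 in paused TSC, 115492 and 18725 in control TSC, 73574 and 61749 in paused ESC, and 19266 and 13607 in control ESC. A count of 0 therefore allows a level of up to 26.0 CPM in the deepest and 220 CPM in the shallowest library, taking 3 counts as the limit. The labels were checked against marker lists, with levels in CPM before TMM scaling. The summed TSC markers of the miR-322/miR-503 cluster stood at 56824 to 75508 CPM in paused TSC and 100622 to 111829 CPM in control TSC, against 1296 to 1332 CPM in paused ESC and 882 to 1470 CPM in control ESC. In TSC the sum rested mostly on miR-322-5p, with 2682 counts in paused and 10948 in control cells. miR-542-3p had 47, 109, 60 and 6 counts in paused TSC, control TSC, paused ESC and control ESC. Those of miR-450b-5p were 5, 6, 11 and 0. The summed ESC markers stood at 0 to 42.3 CPM in paused TSC and 0 to 60.6 CPM in control TSC, against 1393 to 1481 CPM in paused ESC and 4100 to 7349 CPM in control ESC. In paused ESC this sum rested mostly on 1 miRNA, miR-708-5p with 185 counts. There miR-302a-3p, miR-302b-3p, miR-302c-3p, miR-302d-3p and miR-367-3p had 0, 3, 2, 1 and 4 counts. In control ESC, where the total was lower, they had 8, 28, 6, 22 and 40. Markers of liver and neurons were at 0 in every library, and of the muscle markers only miR-206-3p was counted, with 6 counts in control TSC. The handling of reads from sequences with more than 1 locus is not stated, so a zero of such a marker does not show absence. All levels are shares of a library, and in bulk samples fewer cells of a type cannot be told apart from less of an RNA per cell.

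The family was a large component of TSC and a small one of ESC. The 6 arms together held 8.08% and 5.37% of all counts in the 2 paused TSC libraries and 3.61% and 5.05% in control TSC. In ESC they held 0.688% and 0.596% of counts in paused cells and 1.36% and 1.55% in control cells. Every TSC library therefore exceeded every ESC library, and the paused ESC libraries were the lowest of all. Across the 8 libraries 10016 counts fell on the 6 arms, and 90.0% of these on miR-301a-3p and miR-130a-3p.

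miR-301a-3p is cut from the Ska2 intron. It had 27857 and 27464 CPM in paused TSC, 36505 and 24414 CPM in control TSC, 1572 and 1510 CPM in paused ESC, and 4633 and 6886 CPM in control ESC. The TSC values of both states overlapped, both ESC states lay far below them, and paused ESC lay below control ESC without overlap. In rank among all miRNAs of a library it stood between 9 and 12 in TSC, at 22 in both control ESC libraries and at 45 and 47 in paused ESC.

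miR-130a-3p, known from endothelial cells, had a similar profile but a much wider spread in TSC. It had 49369 and 19824 CPM in paused TSC, 14659 and 31512 CPM in control TSC, 1572 and 1352 CPM in paused ESC, and 3799 and 3443 CPM in control ESC. The libraries of paused and control TSC overlapped and differed within a state by 2.49-fold and 2.15-fold. The ESC libraries agreed to within 1.16-fold in paused and 1.10-fold in control cells.

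The 3p arms of the chromosome 16 locus were less abundant than miR-301a-3p and miR-130a-3p in TSC and in control ESC, while in paused ESC miR-130b-3p lay at or above both. miR-130b-3p had 1723 and 1473 CPM in paused TSC, 1165 and 551 CPM in control TSC, 1825 and 1604 CPM in paused ESC, and 2363 and 1819 CPM in control ESC. Its control TSC libraries were the lowest, and the other groups lay close together. miR-301b-3p had 1134 and 1320 CPM in paused TSC, 1437 and 979 CPM in control TSC, 583 and 252 CPM in paused ESC, and 880 and 1299 CPM in control ESC. Only paused ESC stood apart from the other groups, and it stood below them.

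The 5p arms had the lowest levels in TSC and in control ESC, while in both paused ESC libraries miR-130b-5p exceeded miR-301b-3p. miR-130b-5p had 126 and 123 CPM in paused TSC, 129 and 245 CPM in control TSC, 862 and 1069 CPM in paused ESC, and 463 and 195 CPM in control ESC. Paused ESC was thus the group with the most miR-130b-5p and the least miR-301b-3p, although their hairpins are neighbours. miR-301a-5p had 2 counts in each paused TSC library and 12 and 3 counts in control TSC. In ESC it had 0 counts in both paused libraries and 0 and 1 count in control libraries.

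**Figure D1:**
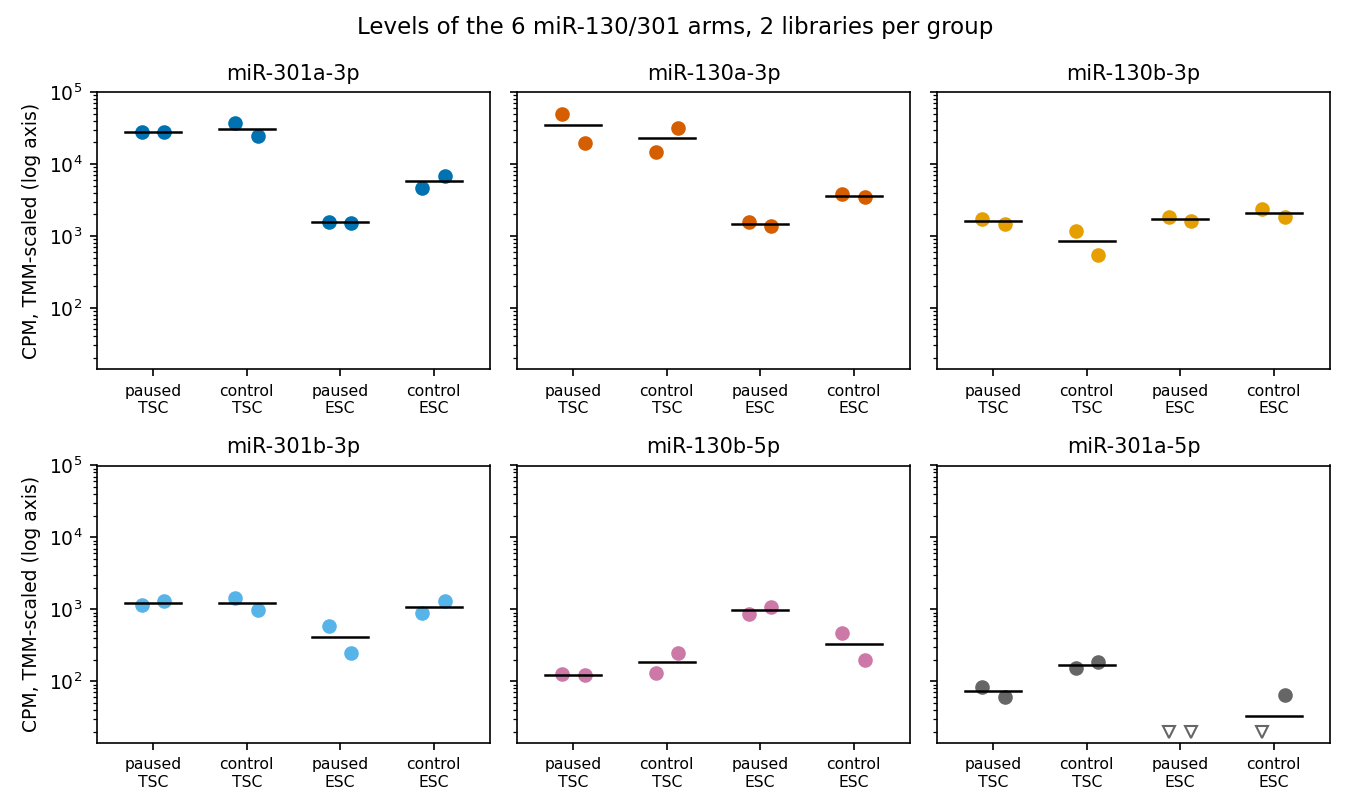
Level of each of the 6 arms in CPM (TMM-scaled, log axis) in paused TSC, control TSC, paused ESC and control ESC; points are libraries, bars are the means of 2, and open triangles mark libraries with 0 counts, drawn at the bottom edge. miR-301a-3p and miR-130a-3p lie at or above 14659 CPM in every TSC library and at or below 6886 CPM in every ESC library, while miR-130b-5p is highest in paused ESC.

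Members were tested for differences between groups in the fit over all miRNAs. A miRNA entered it if at least 2 libraries reached 369 CPM before scaling. Of the 6 arms 5 passed, and miR-301a-5p reached that level in 0 libraries. miR-130a-3p, miR-130b-3p and miR-301a-3p reached it in all 8 libraries and miR-301b-3p in 7. miR-130b-5p reached it in both paused ESC libraries and 1 control ESC library but in 0 TSC libraries, so its passing is tied to the cells in which it is high.

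The first question of the design was what pausing does in ESC. There miR-301a-3p, miR-130a-3p and miR-301b-3p fell and miR-130b-5p rose, while miR-130b-3p was not called. miR-301a-3p averaged 1541 ± 44.0 CPM in paused ESC and 5759 ± 1593 CPM in control ESC (SD, n = 2 each), a log2 fold change of −1.89 with an SE of 0.34 (edgeR adjusted p = 7.50e-07). miR-130a-3p averaged 1462 ± 155 CPM in paused and 3621 ± 252 CPM in control ESC (−1.31 ± 0.35 SE, edgeR adjusted p = 0.0013). miR-301b-3p averaged 417 ± 234 CPM in paused and 1090 ± 296 CPM in control ESC (−1.33 ± 0.44 SE, edgeR adjusted p = 0.0146).

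From the miR-130b hairpin the arms parted in ESC. miR-130b-5p averaged 966 ± 147 CPM in paused and 329 ± 190 CPM in control ESC (log2 fold change 1.46 ± 0.48 SE, edgeR adjusted p = 0.0138). It reached the filter in both paused but only 1 control ESC library. miR-130b-3p averaged 1715 ± 157 CPM in paused and 2091 ± 384 CPM in control ESC (−0.29 ± 0.38 SE, edgeR adjusted p = 0.588), with overlapping libraries and a 95% interval of −1.05 to 0.46. The libraries of the groups did not overlap for the 4 called arms. They also did not overlap for miR-148b-3p, miR-19a-3p and miR-19b-3p, which lie outside the family and were not called. The share of all tested miRNAs without overlap was not counted, so the separation adds nothing to the calls.

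Thus 3 of 5 tested members were called lower and 1 higher in paused ESC. Over all 206 tested miRNAs 27.7% were called, 19.4% lower and 8.25% higher. The 5 members had a median log2 fold change of −1.31 and all tested miRNAs one of −0.03, which became 0.11 with median-of-ratios scaling and −0.13 with total counts only. The calls over all tested miRNAs, 17 higher and 40 lower, became 29 and 37 under median-of-ratios scaling.

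Of these calls, that of miR-301a-3p held under every alternative tried. DESeq2 called miR-301a-3p alone (adjusted p = 0.211 for miR-130a-3p, 0.148 for miR-301b-3p and 0.146 for miR-130b-5p). With each miRNA's own spread in place of the pooled one, again 1 member was called, miR-301a-3p lower. Over all 206 tested miRNAs the calls also fell, from 57 to 37 by DESeq2 and to 24 with the own spread. The calls of miR-130a-3p and miR-301b-3p ended without a filter (edgeR adjusted p = 0.0857 and 0.223) and with a filter at 10 CPM (0.0785 and 0.121). The calls of miR-130b-5p and miR-301b-3p also ended without paused replicate 2 (edgeR adjusted p = 0.109 and 0.307) and without control replicate 2 (0.237 and 0.274).

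Markers of blood cells also differed between the ESC states, in both directions. The summed blood list stood at 4826 to 5695 CPM (unscaled) in paused ESC and 8928 to 11097 CPM in control ESC. Of its 6 miRNAs, miR-223-3p and miR-451a, which define myeloid and red blood cells, were at 0 in all libraries. miR-142a-5p and miR-142a-3p had 36 and 20 counts in paused ESC against 172 and 75 in control ESC, and miR-150-5p had 659 counts in paused ESC against 76 in control ESC, where the total was lower. In TSC the blood list stood at 0 to 42.3 CPM in paused and 0 to 130 CPM in control cells. The fibroblast list stood at 891 to 1060 CPM in paused ESC and 808 to 1142 CPM in control ESC, with 3 of its 7 miRNAs, miR-199a-5p, miR-199a-3p and miR-199b-3p, at 0 in all libraries. Each of these sequences has more than 1 locus in RefSeq, and since the handling of such reads is not stated, their zeros do not show that fibroblast RNA was absent. The endothelial markers, miR-126a-3p and miR-126a-5p, summed to 1020 to 1047 CPM in paused ESC and 955 to 1038 CPM in control ESC. The part of these cell types in the family's values was not tested.

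In TSC no member was called on pausing. miR-130a-3p averaged 34596 ± 20892 CPM in paused TSC and 23085 ± 11917 CPM in control TSC (SD, n = 2 each; log2 fold change 0.59 ± 0.31 SE, edgeR adjusted p = 0.199), a difference smaller than the spread between libraries. miR-301a-3p averaged 27661 ± 278 CPM in paused and 30460 ± 8550 CPM in control TSC (−0.14, 95% interval −0.75 to 0.47). miR-130b-3p averaged 1598 ± 177 CPM in paused and 858 ± 435 CPM in control TSC (0.75 ± 0.41 SE, edgeR adjusted p = 0.208), where the libraries did not overlap but control replicate 2 had only 9 counts. The log2 fold change was −0.04 for miR-301b-3p and −0.31 for miR-130b-5p. Over all tested miRNAs 18.9% were called, 17% lower and 1.94% higher.

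The count of 0 members in TSC, from edgeR with 0 of 5 at an unadjusted p under 0.05 and 0 called by DESeq2, depended on scaling and on 1 library. Total counts without TMM called miR-130a-3p (0.95) and miR-130b-3p (1.28) higher, and median-of-ratios scaling called miR-130a-3p (0.76) higher, as did the fit on TSC alone (0.78). Over the 206 tested miRNAs the median log2 fold change was −0.39 under TMM with 4 called higher and 35 lower. Under total counts it was 0.08, with 14 higher and 12 lower, and under median of ratios −0.14, with 6 higher and 18 lower. Without control replicate 2 the log2 fold change of miR-130a-3p was 1.23 (edgeR adjusted p = 0.00031), and without paused replicate 1 it was −0.21.

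**Figure D2:**
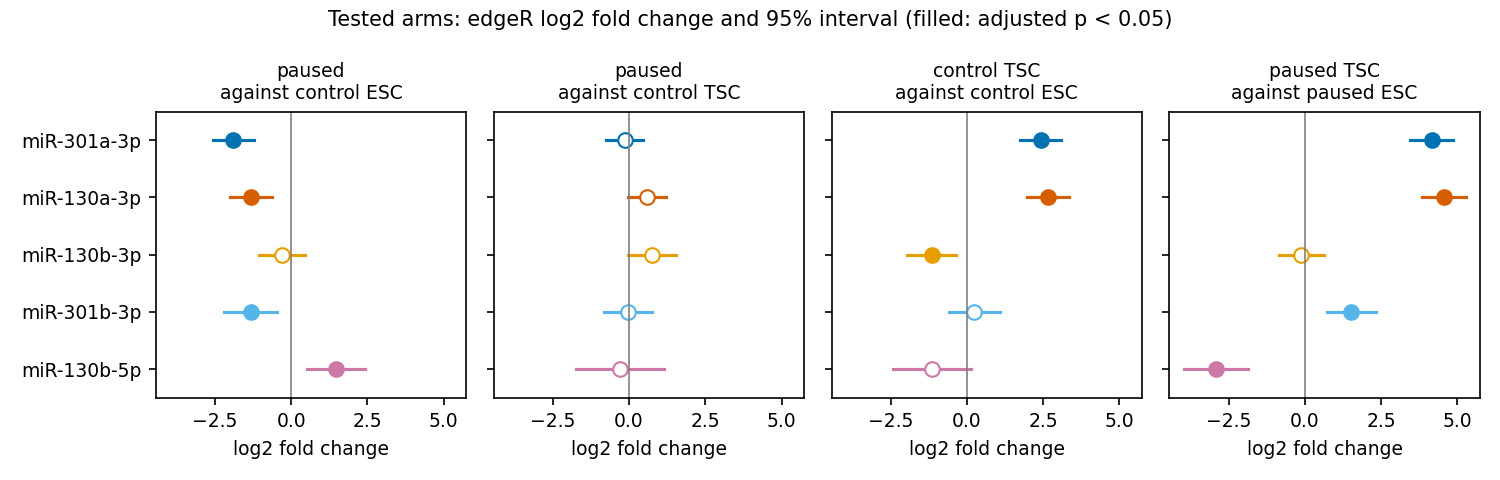
Log2 fold change of the 5 tested arms with its 95% interval in 4 comparisons (edgeR, spread pooled over miRNAs); filled points have an adjusted p under 0.05. On pausing, 4 arms were called in ESC and 0 in TSC, and the excess of miR-301a-3p and miR-130a-3p in TSC is 2.42 and 2.66 in control cells and 4.16 and 4.56 in paused cells.

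Whether pausing acted differently in the cell types was tested directly as the effect in ESC minus that in TSC. The difference was −1.90 ± 0.47 SE for miR-130a-3p (edgeR adjusted p = 0.000679) and −1.75 ± 0.46 SE for miR-301a-3p (edgeR adjusted p = 0.00174), so both were lower by pausing in ESC relative to TSC. It was −1.29 for miR-301b-3p (edgeR adjusted p = 0.0826), −1.05 for miR-130b-3p (0.145) and 1.77 for miR-130b-5p (0.114), which were not called. This made 2 of 5 members, both lower, against 26.2% of all tested miRNAs called in either direction and 11.7% lower (14.6% higher). The split over all tested miRNAs was 30 higher and 24 lower with TMM, and 17 and 40 with total counts. DESeq2 called miR-301a-3p but not miR-130a-3p (adjusted p = 0.133). With each miRNA's own spread and with a filter at 10 CPM 0 members were called, and without paused TSC replicate 1 the call of miR-130a-3p ended, at a difference of −1.10 (edgeR adjusted p = 0.136). Without control TSC replicate 1, 4 members were called lower, miR-130b-3p and miR-301b-3p in addition, and without paused ESC replicate 1 miR-301b-3p was added (edgeR adjusted p = 0.0446).

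Between the cell types, the abundant members set TSC apart in both states. In control cells miR-130a-3p was 6.31-fold higher in TSC than in ESC, 2.66 on the log2 scale with an SE of 0.35 (edgeR adjusted p = 4.60e-13). miR-301a-3p was 5.33-fold higher, 2.42 with an SE of 0.34 (edgeR adjusted p = 1.21e-11). miR-130b-3p was lower in control TSC (−1.16 ± 0.41 SE, edgeR adjusted p = 0.00841), and miR-301b-3p (0.24) and miR-130b-5p (−1.15, edgeR adjusted p = 0.097) were not called. Here 2 members were higher and 1 lower, beside 40.8% and 33.5% of all tested miRNAs, 74.3% in all. That split was 84 higher and 69 lower with TMM (median log2 fold change of tested miRNAs 0.23), 66 and 87 under median-of-ratios scaling (−0.29), and 63 and 89 under total counts (−0.41). With each miRNA's own spread in place of the pooled one, the edgeR adjusted p was 0.0311 for miR-130a-3p and 0.00683 for miR-301a-3p. The call of miR-130b-3p then ended (edgeR adjusted p = 0.0571). The endothelial markers stood at 2000 to 2724 CPM (unscaled) in control TSC and 955 to 1038 CPM in control ESC, and at 2001 to 2325 CPM in paused TSC and 1020 to 1047 CPM in paused ESC, and their part in the family's values was not tested. The call of miR-130b-3p ended without control ESC replicate 1 (log2 fold change −0.96). That of miR-130b-5p was gained without control ESC replicate 2 (−1.97) or control TSC replicate 2 (−1.41). It was also gained with median-of-ratios scaling (−1.67, edgeR adjusted p = 0.0151) and with total counts (−1.81, edgeR adjusted p = 0.0101). Under these scalings miR-130a-3p stood at 2.21 and 2.16 and miR-301a-3p at 1.90 and 1.83.

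In paused cells the contrast was wider. miR-130a-3p was 23.5-fold higher in paused TSC than in paused ESC, 4.56 on the log2 scale with an SE of 0.37 (edgeR adjusted p = 2.08e-31). miR-301a-3p was 17.9-fold higher, 4.16 with an SE of 0.36 (edgeR adjusted p = 9.34e-28). With each miRNA's own spread in place of the pooled one, the edgeR adjusted p was 0.00802 for miR-130a-3p and 0.00184 for miR-301a-3p. miR-301b-3p was also higher (1.53 ± 0.41 SE, edgeR adjusted p = 0.000377), miR-130b-5p was lower (−2.92 ± 0.54 SE, edgeR adjusted p = 1.55e-07), and miR-130b-3p did not pass the test (−0.11, 95% interval −0.85 to 0.63). miR-130b-5p entered the test through ESC libraries only and had 7 counts in paused TSC, so its call is not independent of the filter. Of all tested miRNAs 76.7% were called, 39.3% higher and 37.4% lower, so the share of members called, 4 of 5, lies near the background. miR-301b-3p was not called by DESeq2 (adjusted p = 0.0706) or without paused ESC replicate 2 (edgeR adjusted p = 0.0784). miR-301a-5p, outside the test, had 4 counts in paused TSC and 0 in paused ESC, at least 3.33-fold higher if paused ESC is set at 3 counts for the whole group. It entered the test under looser filters and was then called higher in paused TSC, with an edgeR adjusted p of 0.028 without a filter and 0.0475 at 10 CPM. This made 5 of 6 members called without a filter, beside 215 of 648 tested miRNAs, and 229 of 486 miRNAs were called at 10 CPM. In control cells it had 15 counts in TSC and 1 in ESC, a ratio of 3.67 with a 95% counting interval of 0.565 to 155.

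The make-up of the family changed with these differences. In TSC miR-301a-3p and miR-130a-3p made up nearly all of it: their shares of the 6 arms' counts averaged 44.7% ± 14.1 and 50.5% ± 15.6 in paused TSC and 54.9% ± 17.9 and 40.8% ± 19.3 in control TSC (SD, n = 2). In paused ESC the counts were spread over miR-130b-3p (28.1% ± 0.524), miR-301a-3p (25.3% ± 1.12), miR-130a-3p (23.9% ± 0.804) and miR-130b-5p (16.0% ± 3.56). In control ESC miR-301a-3p led with 44.2% ± 8.53, followed by miR-130a-3p with 28.2% ± 4.37 and miR-130b-3p with 16.4% ± 4.38. The order of the top 3 in paused ESC rests on differences near their spread.

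The ratio of the 2 leading arms within a library showed how far replicates diverged. miR-130a-3p counts over miR-301a-3p counts were 1.77 (95% counting interval 1.61 to 1.95) and 0.722 (0.651 to 0.800) in paused TSC, and 0.402 (0.374 to 0.430) and 1.29 (1.13 to 1.47) in control TSC. The intervals of replicates of 1 group did not overlap in TSC. In ESC the ratio was 1.00 (0.773 to 1.29) and 0.896 (0.662 to 1.21) in paused cells, and in control cells 0.820 (0.605 to 1.11) in replicate 1. Control ESC replicate 2 had 53 counts of miR-130a-3p and 106 of miR-301a-3p (interval of the ratio 0.353 to 0.702), and the intervals of replicates overlapped in both ESC states.

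Neighbouring hairpins on chromosome 16 also differed in their ratio. miR-301b-3p counts over miR-130b-3p counts were 0.659 and 0.896 in paused TSC, 1.23 and 1.78 in control TSC, 0.319 and 0.157 in paused ESC, and 0.373 and 0.714 in control ESC. Both paused groups lay below the control group of their cell type, with wide counting intervals such as 0.740 to 4.56 in control TSC replicate 2.

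**Figure D3:**
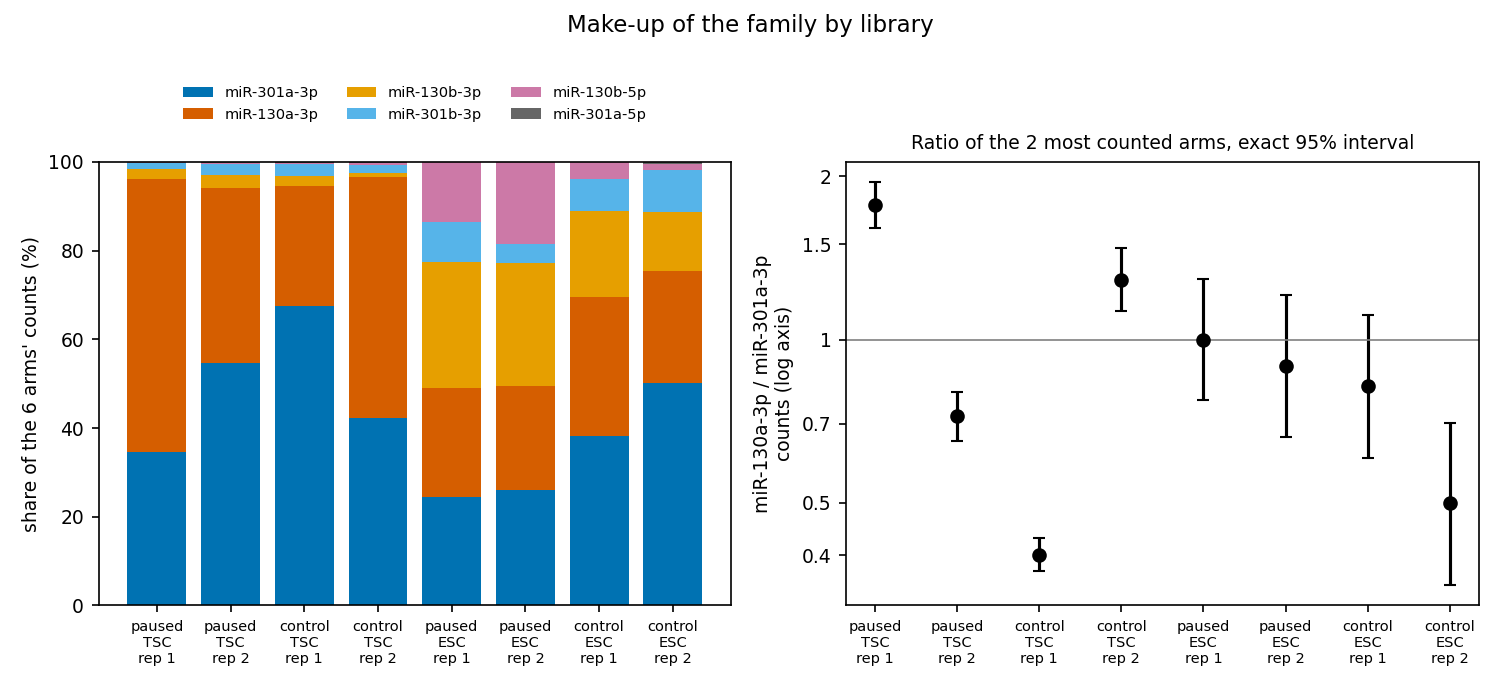
Left, share of each of the 6 arms in their summed counts (%) per library; right, ratio of miR-130a-3p to miR-301a-3p counts (log axis) with exact 95% intervals. miR-301a-3p and miR-130a-3p fill the TSC bars, the miR-130b arms widen in paused ESC, and the ratio runs from 0.402 to 1.77 over the TSC libraries.

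Opposite arms were followed as the 5p share of a hairpin's counts. For miR-130b it was 32.1% (exact 95% binomial interval 25.8% to 38.8%) and 40.0% (32.6% to 47.8%) in paused ESC, against 16.4% (8.15% to 28.1%) and 9.68% (2.04% to 25.8%) in control ESC. In TSC it was 6.82% and 7.69% in paused cells, against 10.0% and 30.8% in control cells, the last from 4 of 13 counts (9.09% to 61.4%). Both paused ESC libraries thus lay above every other library, by little over the thinly counted control TSC replicate 2, and paused TSC lay below control TSC.

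The mean 5p share of miR-130b was 36.0% ± 5.60 in paused ESC and 13.0% ± 4.75 in control ESC (SD, n = 2 each), a difference of 23.0 percentage points. In TSC it was 7.26% ± 0.618 in paused and 20.4% ± 14.7 in control cells, a difference of −13.1 points. That difference rested on control TSC replicate 2 with its 13 counts: it was −2.74 points without it, −23.5 points without control TSC replicate 1 and −5.10 points on counts pooled within a group. The exact two-sided permutation p was 0.33 in each case, the smallest that 2 libraries against 2 allow. Paused TSC minus paused ESC gave −28.8 points (exact permutation p = 0.33), and control TSC minus control ESC gave 7.35 points with overlapping libraries (exact permutation p = 0.67), which turned to −3.04 without control TSC replicate 2 and −1.74 on pooled counts.

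The other hairpins were almost wholly 3p. The 5p share of miR-130a was 0.339% and 1.07% in paused TSC, 1.48% and 0.579% in control TSC, 3.88% and 2.27% in paused ESC, and 5.75% and 3.64% in control ESC, from 2 to 17 counts of miR-130a-5p per library. The share was above 2% in every ESC library and below it in every TSC library. For miR-301a it was 0.301% and 0.223% in paused TSC and 0.424% and 0.746% in control TSC, with an exact permutation p of 0.33. In ESC it was 0% in both paused libraries, which at 124 and 96 counts allows up to 2.42% and 3.13%, and 0% and 0.935% in control libraries. miR-301b-5p had 5 counts in all 8 libraries together.

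**Figure D4:**
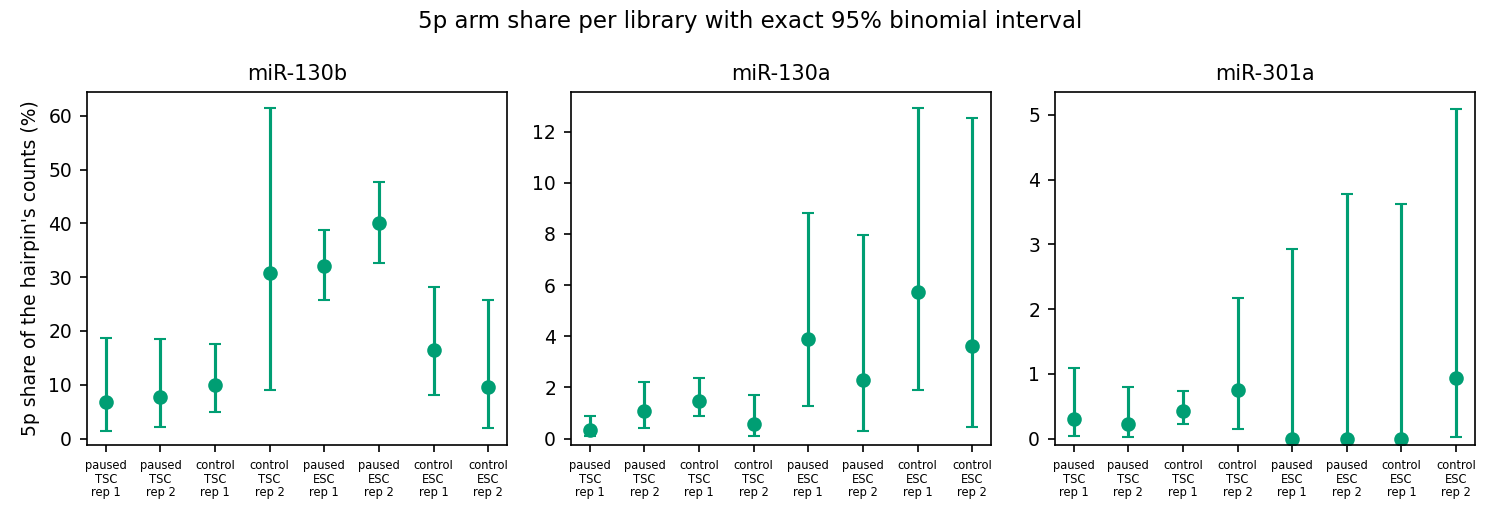
Share of the 5p arm in the counts of the miR-130b, miR-130a and miR-301a hairpins (%) per library with exact 95% binomial intervals; each panel has its own scale. Paused ESC has the highest miR-130b values, 32.1% and 40.0%, and the miR-301a share is below 1% in all libraries.

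Other miRNAs of the same or a similar seed were measured beside the family. RefSeq holds 4 further mouse miRNAs with the seed AGUGCAA, miR-130c, miR-721, miR-6341 and miR-6389, and each stood at 0 counts in all 8 libraries. Among miRNAs matched in RefSeq, the counted reads of this seed therefore came from miR-130a-3p, miR-130b-3p and miR-301a-3p. The seed of miR-301b-3p, and of other counted miRNAs without a RefSeq entry, was not checked. A list of 5 miRNAs with the seed offset by 1 base holds miR-19a-3p and miR-19b-3p of the miR-17-92 family, and miR-148a-3p, miR-148b-3p and miR-152-3p, known to repress DNA methyltransferases. A line each shows the offset, with their own seeds in capitals.
miR-19a-3p: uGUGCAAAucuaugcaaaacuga
miR-148a-3p: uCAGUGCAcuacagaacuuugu

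All 5 miRNAs of the offset list were tested. On pausing of ESC, 1 of 5 was called higher and 0 lower, miR-148a-3p with 735 and 849 CPM in paused ESC against 371 and 260 CPM in control ESC (log2 fold change 1.28, edgeR adjusted p = 0.0374). On pausing of TSC the log2 fold changes of the 5 ran from −0.34 to 0.83, and edgeR gave each an unadjusted p above 0.05. miR-19a-3p, the most abundant of the list, was lower in TSC than in ESC in both states (−2.35 in control and −2.69 in paused cells, edgeR adjusted p = 5.61e-12 and 2.76e-15), opposite in sign to miR-130a-3p and miR-301a-3p. It averaged 10400 ± 1038 CPM in paused TSC and 8620 ± 5354 CPM in control TSC, against 67210 ± 130 CPM in paused ESC and 44924 ± 9415 CPM in control ESC. miR-152-3p had 23 counts in paused TSC and 0 in paused ESC (at least 19.2-fold higher) and passed the filter through TSC alone. In each state 1 of the 5 was called higher in TSC (miR-152-3p) and 2 lower, miR-19a-3p with miR-148b-3p in control and with miR-19b-3p in paused cells. Both miR-148b-3p and miR-19b-3p passed the filter through ESC alone, so their calls are tied to the cells in which they are high. These counts of 3 in 5 stand beside 74.3% and 76.7% of all tested miRNAs called in control and paused cells, and the 1 in 5 on pausing of ESC beside 27.7%. miR-19b-3p has 2 loci and 112 counts in all, and how reads of both loci were assigned is not stated.

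Tested miRNAs outside the family with the most similar profile were found by the root mean square difference of log2 CPM over the 8 libraries, each miRNA centred on its own mean. For miR-301a-3p these were miR-467e-5p (0.26), miR-188-5p (0.32) and miR-324-5p (0.38), beside a median of 1.82 over all tested miRNAs. For miR-130a-3p they were miR-188-5p (0.46), miR-298-5p (0.57) and miR-467b-3p (0.59), while its distance from miR-301a-3p was 0.65. The nearest to miR-130b-3p were miR-423-5p (0.28), miR-674-5p (0.38) and miR-423-3p (0.42). Those nearest to miR-130b-5p were miR-361-5p (0.38), miR-7a-1-3p (0.47) and miR-25-3p (0.48). The distance between both arms of miR-130b was 1.03, and that between miR-130a-3p and miR-130b-3p, which differ by 2 bases, was 2.21.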

How the data were processed

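Small RNA libraries of mouse trophoblast and embryonic stem cells were made with the SMARTer smRNA-seq kit, per the labels' protocols. The deposited files hold raw counts per mature miRNA arm, unscaled, and GRCm38 is the build in the submitters' processing notes. The aligner, the counter and how multi-mapping reads were handled are not stated. In every group the third file equalled the second at each of the 1978 miRNAs, so both served as 1 library, which leaves 8. The labels name no separate cultures, so p-values measure only the spread between these samples, which may be technical.

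Counts were fitted in edgeR 4.0.16 (R 4.3.3) with TMM scaling, filterByExpr (minimum count 10) and a quasi-likelihood model of all 4 groups. Benjamini-Hochberg adjustment ran over 206 tested miRNAs, and calls were made at an adjusted p under 0.05, two-sided. The spread was drawn fully to the common trend (biological coefficient of variation 21.3%, 4 residual degrees of freedom), so p-values and fold-change intervals rest on a spread pooled over miRNAs. The procedure was tested on simulated data. Alternatives were DESeq2 1.42.0, other scalings and filters, a replicate block, fits on only the groups compared and leave-one-out fits. CPM values are counts brought to a common library size with the TMM factors. Exact counting intervals cover counting error only, as no molecular identifiers are mentioned. The miRNAs named are the listed arms, the other arms of their hairpins, miRNAs of the same or an offset seed, and the 3 nearest profiles for 4 of the arms. The members and lists were chosen with earlier results of these data known.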

Additional observations from a re-analysis of the deposited data

Results flagged for a closer look

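For 2 of 5 tested members the effect of pausing differed between the cell types by a test of the difference itself, beside 26.2% of all tested miRNAs. For miR-130a-3p the effect in ESC minus that in TSC was −1.90 on the log2 scale (edgeR adjusted p = 0.000679), with −1.31 in ESC and 0.59 in TSC, and it was −1.10 without paused TSC replicate 1 (edgeR adjusted p = 0.136). For miR-301a-3p it was −1.75 (edgeR adjusted p = 0.00174), with −1.89 in ESC and −0.14 in TSC. DESeq2 did not call miR-130a-3p (adjusted p = 0.133). Neither was called with each miRNA's own spread (edgeR adjusted p = 0.264 for miR-130a-3p and 0.0994 for miR-301a-3p) or with the 10 CPM filter (0.113 and 0.209). In these 2 settings 13 of 206 and 51 of 486 tested miRNAs were called. No group has enough libraries for a check of single outlying libraries.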

How the results depend on the processing

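The number of members called on pausing of ESC, 4, was 1 by DESeq2 and with each miRNA's own spread (chosen after seeing the data), 2 without a filter and 2 with the 10 CPM filter, and 2 to 4 with 1 library left out. On pausing of TSC, 0 became 1 with median-of-ratios scaling, 2 with total counts only and 1 in the fit on the groups compared, and 0 to 1 with 1 library left out. For the difference of pause effects, 2 became 1 by DESeq2, 4 with total counts, 0 with the 10 CPM filter and 0 with each miRNA's own spread, and 1 to 4 with 1 library left out. Between control cells the count was 2 to 4 and between paused cells 3 to 4 with 1 library left out, and between paused cells 5 without a filter, with miR-301a-5p added. Over all tested miRNAs, 52 of 648 were called on pausing of ESC without a filter and 51 of 486 at 10 CPM. On pausing of TSC it was 24 of 206 with median of ratios, 26 with total counts and 22 with only the groups compared. For the difference it was 24 of 206 by DESeq2 and 57 with total counts. Between control cells, median of ratios and total counts each called 4 members, beside 153 and 152 of 206. The own spread called 2, beside 121. The causes of these shifts were not tested.

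Replicate numbers did not pair the libraries: deviations of same-numbered paused and control libraries correlated at −0.0715 in ESC and −0.183 in TSC over 206 miRNAs. With the replicate block within cell type, and with the numbers crossed in TSC (chosen after seeing the data), the counts were 4, 0, 2, 3 and 4 members in the 5 comparisons, as without it.

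Signs turned only for members that were not called. On pausing of TSC, miR-301a-3p was 0.089 by DESeq2 and 0.089 with median of ratios, 0.33 with total counts, 0.18 without a filter, 0.15 with only the groups compared, and −0.40 to 0.18 with 1 library left out. miR-301b-3p was 0.24 by DESeq2, 0.22 with median of ratios, 0.48 with total counts, 0.31 without a filter, 0.30 with only the groups compared, 0.0090 with the replicate block and 0.0050 with it crossed, and with 1 library left out −0.22 to 0.33. miR-130b-5p was 0.23 with total counts and 0.018 without a filter, and miR-130a-3p was −0.21 (without paused TSC replicate 1) to 1.23 (without control TSC replicate 2). In control TSC against control ESC, miR-301b-3p was −0.32 by DESeq2, −0.28 with median of ratios, −0.39 with total counts, −0.12 without a filter, and with 1 library left out −0.12 (control TSC replicate 1) to 0.43 (control TSC replicate 2), with −0.05 without control ESC replicate 1. In paused TSC against paused ESC, miR-130b-3p was −0.22 without paused TSC replicate 1 and 0.0054 without paused TSC replicate 2. Of the other values for single members, 25 lost a call and 14 gained one.

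With counts outside the miR-290 to miR-295 cluster as the denominator, the family's share was 16.3% in paused TSC, 8.95% in control TSC, 1.85% in paused ESC and 3.97% in control ESC. Leaving out 1 library gave differences in the 5p share of miR-130b of 19.0 to 27.0 points on pausing of ESC, −23.5 to −2.74 on pausing of TSC, −3.04 to 17.7 between control TSC and control ESC and −32.7 to −24.8 between paused TSC and paused ESC. It gave differences in the 5p share of miR-301a of −0.935 to 0 points on pausing of ESC and 0.223 to 0.301 points between paused TSC and paused ESC. Depth limits the 5p arms most: 10 of 13 counts of miR-130b-5p in control ESC came from 1 library.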

Other observations

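Among well counted miRNAs, those with at least 100 counts in both libraries of a group, miR-130a-3p had the widest spread between replicates in both TSC groups. Relative to the median miRNA its libraries differed 2.46-fold in paused TSC, rank 1 of 36 miRNAs, where the median spread was 1.14-fold. They differed 2.94-fold in control TSC, rank 1 of 28, where the median spread was 1.19-fold. miR-301a-3p, with the same seed, differed 1.002-fold in paused TSC (rank 35) and 1.09-fold in control TSC (rank 23). miR-130a-3p was high in replicate 1 of paused TSC and in replicate 2 of control TSC, so the labels' numbers do not line up with it. Its cause was not tested.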
